A study of Mus musculus with 4 samples.

Results

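Long non-coding RNAs (lncRNAs) are transcripts that encode no known protein, and many are made at low levels, often in a single tissue. In the pancreatic islet, the cluster of endocrine cells that releases insulin, glucagon and somatostatin, lncRNAs lie near genes that define the beta cell, and glucose changes the transcription of many beta cell genes. The transcripts described here are the 108 lncRNAs of the deposited table, discovered by the study itself, whose mean over the 4 islet libraries was under 1 RPKM (reads scaled to transcript length in kilobases and to library depth). Another 37 of these lncRNAs were at 1 RPKM or more. The members were chosen by that mean level, so their low level is a description. The direction of the difference between glucose concentrations did not enter the choice. Its size could, because the mean takes in both groups. A transcript under 1 RPKM in one group and well above it in the other may be left out.

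The libraries came from islets of male C57bl6 mice of 3 months, pooled, kept overnight in 11 mM glucose, and held for 2 h in 2.8 mM glucose before the final culture at 2.8 mM or 16.8 mM. There were 2 libraries at each concentration, of 100 islets each. The design text of the series has 12 h of final culture in both groups. The labels of the samples differ from it for the 2.8 mM group, with 2 h there against 12 h at 16.8 mM, so time and glucose cannot be told apart if the labels are right. All islets were of a single pool, so the p-values measure the spread between libraries, which may be technical.

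These lncRNAs had been assembled from sorted alpha and beta cell libraries, not from these 4. They had to be longer than 3 kb, above 1 RPKM in alpha or beta cells, and free of RefSeq and UCSC exons. Their names here are those of the nearest gene in the study's own list, which does not mean that the gene controls them or is controlled by them. The strand of an lncRNA was not given, and a strand setting for the counting is not given in the sources used here, so an lncRNA and a gene that overlaps it on any strand may share reads.

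Of the 108 lncRNAs, 97 were intergenic and 11 intronic, against 127 and 18 with the higher ones included. They lay on 20 chromosomes, with the most, 10, on chromosome 2. Their spans ran from 3009 to 103591 bp with a median of 4718.5 bp. Their GC content ran from 33.9% to 58.2% with a median of 44.8%, against a median of 41.5% over genome windows of 1000 bp. The study's list gives the annotation at the centre of each transcript: 15 were centred on an LTR element, 15 on a SINE, 10 on a LINE and 1 on a simple repeat, and 67 on no repeat. Although RefSeq exons had been avoided, 18 of the 108 overlapped an exon of the GENCODE M1 annotation, of a protein-coding gene in 10 and of an lncRNA class in 8, with 1 counted in both and 1 at the small nuclear RNA U12. Thus the lncRNA nearest *Foxa2*, the longest at 103591 bp, overlapped the processed transcript 9030622O22Rik, and the lncRNA nearest *Tmem65* lay within *Fer1l6*, a ferlin family gene, and overlapped one of its exons.

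Sequences are shown for the transcripts with the largest differences, read from NCBI build 37 (mm9), the build of the files, on its forward strand because the strand of transcription is unknown. The lncRNA with the highest ratio of 16.8 mM to 2.8 mM, nearest *Dusp10* (chr1:185993513-185999479), is shown by the 200 bases at its centre, chr1:185996396-185996595, with no base marked. The lncRNA with the lowest ratio, nearest 4922502N22Rik (chr6:138984218-138988661), was the one centred on a simple repeat. The 200 bases of it that hold the most copies of GGA, chr6:138986320-138986519, are shown with each GGA in capitals, 38 in all.
Centre of the lncRNA nearest Dusp10: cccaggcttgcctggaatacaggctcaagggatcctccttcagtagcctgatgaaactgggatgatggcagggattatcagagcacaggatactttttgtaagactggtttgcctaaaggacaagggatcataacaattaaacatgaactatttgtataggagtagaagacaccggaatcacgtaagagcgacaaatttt
Repeat in the lncRNA nearest 4922502N22Rik: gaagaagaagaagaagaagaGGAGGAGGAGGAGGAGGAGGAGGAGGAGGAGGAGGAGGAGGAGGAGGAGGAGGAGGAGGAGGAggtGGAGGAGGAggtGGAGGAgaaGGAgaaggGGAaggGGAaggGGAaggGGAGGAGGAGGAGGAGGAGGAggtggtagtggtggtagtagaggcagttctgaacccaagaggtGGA
The GC content of these windows was 43.5% and 60.0%. Whether reads that match several places in the genome were counted is not given in the sources used here.

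The E-box CACGTG, which ChREBP with MLX, the carbohydrate-responsive factors, and MYC with MAX can bind, was looked for on both strands, as was TAATTA, the core of homeodomain sites such as those of PDX1 and NKX6-1. Both motifs are their own reverse complement. In the central 1000 bp, CACGTG was found in 11.1% of the 108 lncRNAs against 9.41% of genome windows of that length. TAATTA was found in 25.9% against 30.5%. Neither motif was therefore much more or less frequent at the centres than in the genome. In their whole spans, 49 of the 108 held CACGTG. The copies in the lncRNAs with the 8 highest and 8 lowest ratios among those called are shown with 15 bases on each side and the motif in capitals, so that the flanks can be compared.
Nearest Tmem65, chr15:58476414-58476449: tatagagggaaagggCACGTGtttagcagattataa
Nearest Tmem65, chr15:58482383-58482418: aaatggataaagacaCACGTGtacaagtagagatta
Nearest Tmem65, chr15:58490993-58491028: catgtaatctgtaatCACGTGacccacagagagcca
Nearest Tmem65, chr15:58496384-58496419: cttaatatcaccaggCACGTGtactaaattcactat
Nearest C030029H02Rik, chr7:143423945-143423980: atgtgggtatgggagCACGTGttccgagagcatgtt
Nearest Npy, chr6:49908983-49909018: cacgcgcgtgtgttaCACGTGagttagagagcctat
Nearest Zmiz1, chr14:26200810-26200845: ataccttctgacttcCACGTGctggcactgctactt
Nearest Zcchc6, chr13:59933864-59933899: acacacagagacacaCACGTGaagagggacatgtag
Nearest Syvn1, chr19:6036346-6036381: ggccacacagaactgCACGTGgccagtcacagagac
Nearest Dbpht2, chr12:75416475-75416510: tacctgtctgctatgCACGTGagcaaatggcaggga
Nearest Dbpht2, chr12:75417388-75417423: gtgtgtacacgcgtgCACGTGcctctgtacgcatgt
The lncRNAs nearest *Dusp10* and 4922502N22Rik, with the highest and the lowest ratio, held no CACGTG. A match is a string of letters and not a measured binding site. Of the 49 lncRNAs with CACGTG in the span, 21 rose and 5 fell by the test given below (42.9% and 10.2%). Of the 59 without it, 17 rose and 4 fell (28.8% and 6.78%). Over all transcripts tested, 7.6% rose and 16.9% fell. Lists with and without CACGTG were not compared by a test. Longer spans hold more copies by their length alone. The median span was 5763 bp in lncRNAs that rose, 4414 bp in those that fell and 4188 bp in those not called.

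The depths recovered from the steps of the RPKM values were 58464000 and 51963000 reads at 2.8 mM and 60709500 and 50801500 at 16.8 mM. A read per kilobase was therefore worth 0.0165 to 0.0197 RPKM. The mean levels of the 108 lncRNAs ran from 0.0377 to 0.980 RPKM with a median of 0.409 RPKM. Of these, 72 were under 0.5 RPKM and 4 under 0.1 RPKM. In reads, a single lncRNA had 4 to 2714 in a library, 99 of the 108 had at least 20 in every library, and none was at 0. Low RPKM thus often stood for a fair number of reads, because the spans were long.

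At the upper edge of the set were the lncRNAs nearest Zfp800 (0.980 RPKM), C530044C16Rik (0.976 RPKM) and Tmem65 (0.950 RPKM). Just outside it were the lncRNAs nearest Gnb2l1 (1.002 RPKM), Erap1 (1.06 RPKM) and Zfp72 (1.11 RPKM). At the lower end, the lncRNA nearest Slc35f6 had 4 and 7 reads at 2.8 mM and 15 and 4 at 16.8 mM, too few to give a direction. Added up, the 108 lncRNAs came to 42.6 and 41.2 RPKM in the 2.8 mM libraries and 51.5 and 49.2 RPKM in the 16.8 mM libraries, and the groups did not overlap. As a share of each library's reads they made up 0.0329% and 0.0318% in the 2.8 mM group, and 0.0422% and 0.0406% in the 16.8 mM group. A single lncRNA, that nearest Tmem65, gave 439 and 317 of the 19215 and 16516 reads at 2.8 mM. At 16.8 mM it gave 2714 and 2285 of 25649 and 20648.

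At 16.8 mM glucose, lncRNAs under 1 RPKM were more often higher than lower. Of the 108, 38 rose and 9 fell, with the lncRNAs nearest *Dusp10*, *Tmem65* and *Chd6* at the top and that nearest 4922502N22Rik at the bottom. The test was limma on log2(RPKM + 0.1), adjusted over the 19148 transcripts whose mean reached 0.03 RPKM, and a call was an adjusted p under 0.05. The share of lncRNAs that rose was 35.2%, against 7.6% of all transcripts tested, and the share that fell was 8.33%, against 16.9%. In either direction 43.5% were called, against 24.5%. At an unadjusted p under 0.05 there were 59 of the 108, and the share of all transcripts at that cut is not given here. The adjusted p-values of the called lncRNAs ran from 0.0058 to 0.049.

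These calls need all 4 libraries. In each of the 47 called lncRNAs both values of one group lay above both of the other. Leaving out a library therefore could not turn a direction. With 1 library left out, limma called 0 to 2 of the 108 lncRNAs and 16 to 164 of all transcripts, while all 47 called lncRNAs kept their direction in every such fit. Only the lncRNAs nearest 4922502N22Rik (adjusted p = 0.0379 to 0.0479 in 3 of these fits), *Tmem65* (0.0322 and 0.0368 in 2) and *Dusp10* (0.0479 in 1) stayed under the threshold, and none did without the second 16.8 mM library.

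More of the lncRNAs rose than fell under each scaling tried. With each library median centred, which moved the median log2 difference of all transcripts from -0.10 to 0.03, 42 of the 108 rose and 8 fell, against 18.0% of all transcripts that rose and 34.5% that were called. With voom, limma's method for counts, on reads rebuilt from the RPKM values, 35 rose and 9 fell, against 13.9% of transcripts that rose and 43.9% called. With a term for the replicate number, 38 rose and 14 fell, against 10.6% that rose and 34.4% called.

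On the plain scale, the ratio of the mean RPKM at 16.8 mM to that at 2.8 mM with nothing added, the median of the 108 lncRNAs was 1.14. Over all transcripts tested it was 0.913. For coding transcripts of 0.03 to 1 RPKM, the nearest in level, the median was 0.911 and 6.89% rose. For RefSeq non-coding transcripts of that level it was 0.952 and 7.3% rose. The 37 lncRNAs of 1 RPKM or more had a median of 0.884, with 10 that rose and 13 that fell (27.0% and 35.1%). Of these 37, 62.2% were called, against 43.5% of the 108. A share of rises above the 7.6% of all transcripts was thus seen in both sets of lncRNAs. The low lncRNAs thus sat above each of these sets in their median, and the difference between the sets was not tested.

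**Figure D1:**
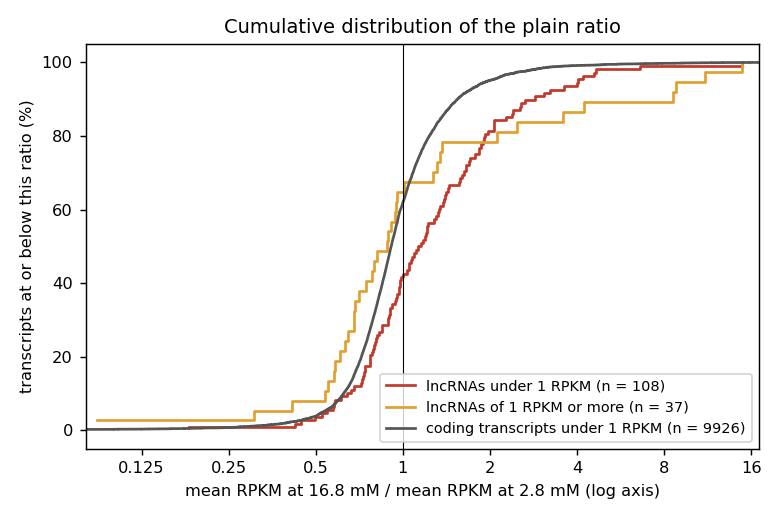
Cumulative share of transcripts (percent) by the ratio of mean RPKM at 16.8 mM to 2.8 mM glucose (log axis). The line of the 108 lncRNAs under 1 RPKM lies to the right of that of coding transcripts under 1 RPKM, with medians of 1.14 and 0.911, while the 37 lncRNAs of 1 RPKM or more have a median of 0.884. Coding transcripts at 0 in one group count as below or above the axis.

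A ratio of 2 or more was seen in 20 lncRNAs, 18.5% of the set against 5.12% of all transcripts, and a ratio of 0.5 or less in 4, 3.7% against 3.94%. At 2 or more, the share was 15% of the RefSeq non-coding transcripts under 1 RPKM, 21.6% of the lncRNAs of 1 RPKM or more and 4.89% of the coding transcripts under 1 RPKM, so it was near that of other non-coding transcripts. At 0.5 or less, these shares were 15.7%, 8.11% and 3.85%. All 24 low lncRNAs past either ratio were also called. In 52 lncRNAs both 16.8 mM values were above both 2.8 mM values (48.1%, against 22.7% of all transcripts), and in 29 both were below (26.9%, against 46.4%). For a single lncRNA, an exact permutation test of 2 libraries against 2 cannot give a two-sided p below 0.333, so single calls rest on the spread shared across transcripts.

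**Figure D2:**
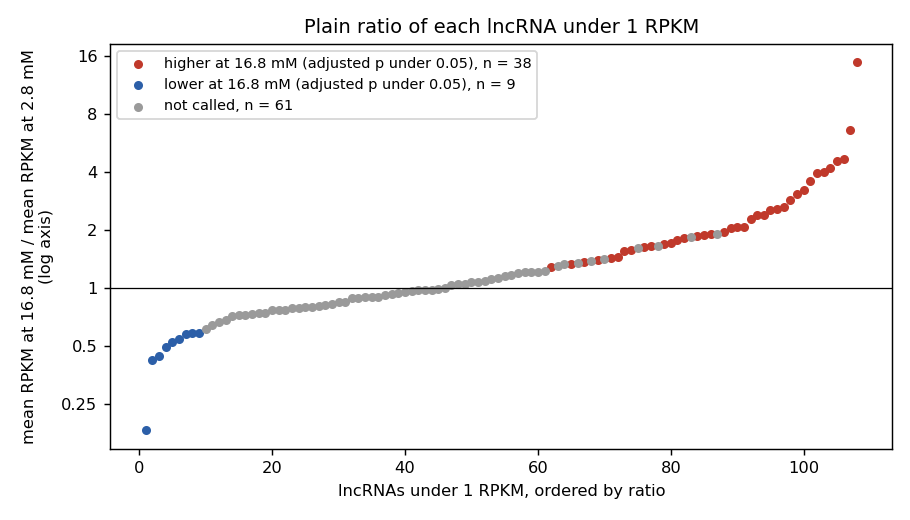
Ratio of mean RPKM at 16.8 mM to 2.8 mM glucose (log axis) of each of the 108 lncRNAs in rank order, coloured by the limma call. Transcripts that rose have ratios from 1.28 to 14.9 and those that fell from 0.182 to 0.581.

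Other measures moved between the groups as well. The summed RPKM of 9 beta cell markers (the insulin genes among them) was 22900 and 20600 at 2.8 mM and 43900 and 41200 at 16.8 mM, with 6 of the 9 higher and none at 0. The summed RPKM of 5 acinar markers was 59.8 and 173 at 2.8 mM and 146 and 320 at 16.8 mM, overlapping between the groups. The sum of 3 duct markers was 1.61 and 4.31 RPKM at 2.8 mM and 4.71 and 8.11 RPKM at 16.8 mM, and that of 2 delta cell markers 589 and 441 RPKM against 693 and 687 RPKM. These 2 sums did not overlap between the groups and were higher at 16.8 mM, although no gene of the lists was called. The acinar list and those for alpha, PP, endothelial, macrophage and stromal cells held no called gene either. In whole islets, fewer cells of a type and less RNA per cell cannot be told apart, and the part of these shifts in the lncRNA values was not tested. The 1124 entries of olfactory receptor genes, chosen after their values were seen as transcripts that lie near 0 in islets, summed to 10.4 and 9.91 RPKM at 2.8 mM and to 7.41 and 5.82 RPKM at 16.8 mM. Their sum was therefore lower at 16.8 mM, where the sum of the low lncRNAs was higher.

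The lncRNA nearest *Dusp10*, a phosphatase that switches off stress-activated MAP kinases, had 0.0459 and 0.0613 RPKM at 2.8 mM and 0.635 and 0.960 RPKM at 16.8 mM. In reads these were 16 and 19 against 230 and 291. The plain ratio was 14.9, with a 95% counting interval of 10.5 to 21.4 that covers counting error only, and the log2 difference was 2.52 ± 0.20 (SE; adjusted p = 0.00983). It was intergenic, and 136.1 kb from the nearest start of a coding gene in GENCODE M1.

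The lncRNA nearest *Tmem65*, a mitochondrial membrane protein gene, spanned 27191 bp (chr15:58469685-58496876). It had 0.276 and 0.224 RPKM at 2.8 mM and 1.64 and 1.65 RPKM at 16.8 mM, a ratio of 6.59. Its 2.8 mM values lay well under 1 RPKM and its 16.8 mM values above it, so that its mean of 0.950 RPKM described neither group. With 2285 and 2714 reads at 16.8 mM it was also the best counted of the strong rises (log2 difference 2.32 ± 0.10, SE; adjusted p = 0.00578). *Tmem65* itself had a ratio of 1.27 and did not pass the test (adjusted p = 0.0529). Because the lncRNA overlapped an exon of *Fer1l6*, reads of that gene and of the lncRNA cannot be told apart here.

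The lncRNA nearest *Chd6*, a chromatin remodeller gene, lay 307.5 kb from it. It had 0.136 and 0.102 RPKM at 2.8 mM and 0.428 and 0.684 RPKM at 16.8 mM (ratio 4.67). *Chd6* had a ratio of 0.891 and was not called (adjusted p = 0.216), so the pair lay on opposite sides of 1.

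The lncRNA nearest C030029H02Rik, itself a non-coding gene, had 0.294 and 0.331 RPKM at 2.8 mM and 1.28 and 1.59 RPKM at 16.8 mM (ratio 4.59). C030029H02Rik had 0.0051 and 0.0077 RPKM against 0.0545 and 0.0867 RPKM, and it rose too (ratio 11.0; adjusted p = 0.0269), from a level near that of no reads. The nearest coding gene start, that of the proliferation marker gene *Mki67*, was 514.2 kb away.

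The lncRNA nearest *Timd4*, a receptor for phosphatidylserine on macrophages, rose from 0.193 and 0.217 RPKM to 0.662 and 1.06 RPKM (ratio 4.20). In GENCODE M1 it lay in an intron of *Sgcd*, a sarcoglycan gene, although the study's list calls it intergenic. *Timd4* was too low to be tested.

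The lncRNA nearest *Hs3st6*, a heparan sulfate sulfotransferase gene, rose from 0.118 RPKM in both 2.8 mM libraries to 0.396 and 0.553 RPKM (ratio 4.02). It lay 12.6 kb from the start of *Hs3st6*, which rose as well (ratio 1.64; adjusted p = 0.0349). The lncRNA nearest *Npy*, the neuropeptide Y gene, had 0.0447 and 0.0470 RPKM against 0.170 and 0.196 RPKM (ratio 3.98), or 15 and 14 reads against 59 and 57. *Npy* had a ratio of 2.08 without passing the test (adjusted p = 0.0802).

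The lncRNA nearest 4933411E08Rik rose from 0.144 and 0.0826 RPKM to 0.401 and 0.415 RPKM (ratio 3.61). In these 8 strongest rises the groups did not overlap, and the lower 16.8 mM value was at least 2 times the higher 2.8 mM value in each. The spread between the 16.8 mM libraries was wider than between the 2.8 mM libraries for those nearest *Dusp10*, *Chd6*, C030029H02Rik, *Timd4*, *Hs3st6* and *Npy*, where the second library had the higher value each time.

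**Figure D3:**
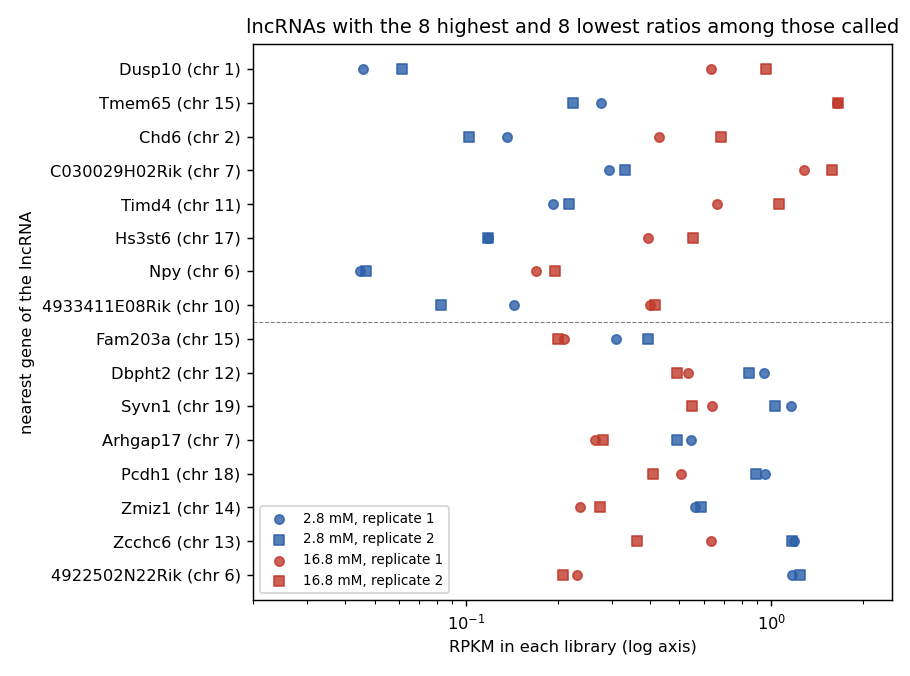
RPKM in each of the 4 libraries (log axis) of the lncRNAs with the 8 highest and the 8 lowest ratios among those called, named by nearest gene and chromosome, with blue for 2.8 mM, red for 16.8 mM, circles for replicate 1 and squares for replicate 2. In all 16 the red and blue points do not overlap, and the lncRNA nearest Dusp10 moves farthest, from 0.0459 and 0.0613 to 0.635 and 0.960 RPKM.

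The largest fall was that of the lncRNA nearest 4922502N22Rik, with the GGA repeat shown above. It had 1.17 and 1.24 RPKM at 2.8 mM and 0.230 and 0.208 RPKM at 16.8 mM, or 304 and 286 reads against 62 and 47. The ratio was 0.182, and the log2 difference of -2.03 ± 0.08 (SE) had an adjusted p of 0.00578. This was the counterpart of the lncRNA nearest *Tmem65*, above 1 RPKM in one group and under it in the other. 4922502N22Rik was listed at 0 in all libraries, and the nearest coding gene start was 377.3 kb away.

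The lncRNA nearest *Zcchc6*, a gene for an enzyme that adds uridines to RNA ends, fell from 1.19 and 1.17 RPKM to 0.635 and 0.363 RPKM (ratio 0.423), and its 16.8 mM values were the least alike among the falls. *Zcchc6* stayed near 1 with a ratio of 1.03 (adjusted p = 0.694). The lncRNA nearest *Zmiz1*, a transcriptional coregulator gene, fell from 0.563 and 0.588 RPKM to 0.236 and 0.275 RPKM (ratio 0.443). It overlapped the annotated lincRNA Gm17716, and *Zmiz1* had a ratio of 1.03 (adjusted p = 0.756). Both coding neighbours thus had ratios near 1 where the lncRNA fell.

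The lncRNA nearest *Pcdh1*, a protocadherin gene, fell from 0.956 and 0.893 RPKM to 0.508 and 0.410 RPKM (ratio 0.496). The lncRNA nearest *Arhgap17* lay 1.4 kb from the start of that gene and fell from 0.546 and 0.493 RPKM to 0.265 and 0.281 RPKM (ratio 0.525). *Arhgap17* fell by nearly the same factor (ratio 0.518; adjusted p = 0.0114). The lncRNA nearest *Syvn1*, a ubiquitin ligase gene of the endoplasmic reticulum, fell from 1.16 and 1.03 RPKM to 0.641 and 0.551 RPKM (ratio 0.545), whereas *Syvn1* had a ratio of 0.889 and was not called (adjusted p = 0.277). The other 3 falls, nearest *Dbpht2*, *Fam203a* and Gm19345, had ratios of 0.573, 0.580 and 0.581. The lncRNA nearest *Dbpht2* overlapped an exon of the gene Gm11042, listed as coding in GENCODE M1.

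Among the genes near these lncRNAs are several that define or serve the beta cell. A list of 26 lncRNAs near such genes and near genes of hormones, signalling and transcription held 8 that rose and 1 that fell. These were 30.8% and 3.85%, against 35.2% and 8.33% of all 108 lncRNAs and 7.6% and 16.9% of all transcripts. The median ratio of the list was 1.09, against 1.14 for the 108. The list was drawn up with earlier results of these data known.

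The lncRNA nearest 2210019I11Rik lay 12.7 kb from the start of *Pdx1*, the homeodomain factor that beta cells need for insulin transcription (chr5:148094203-148102749). It had 0.208 and 0.257 RPKM at 2.8 mM and 0.438 and 0.475 RPKM at 16.8 mM (ratio 1.96; adjusted p = 0.0183). *Pdx1* had 4.92 and 4.35 RPKM against 11.5 and 12.8 RPKM (ratio 2.61; adjusted p = 0.0103). The non-coding gene 2210019I11Rik rose too (ratio 2.51; adjusted p = 0.00914), so the lncRNA and both of these genes were higher. This lncRNA lies past the end of *Pdx1* (chr5:148081535-148089584, plus strand). Whether reads running past that end were counted in it was not tested.

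The lncRNA nearest *Nkx6-1*, another homeodomain factor of the beta cell, had 0.385 and 0.369 RPKM at 2.8 mM and 0.689 and 0.647 RPKM at 16.8 mM (ratio 1.77; adjusted p = 0.0128). It lay 10 kb from the start of the gene and past its end. *Nkx6-1* (chr5:102087158-102094245) is on the minus strand, and the lncRNA ends at 102084265. Whether reads running past the end of the gene were counted in the lncRNA was not tested. *Nkx6-1* had 11.0 and 10.1 RPKM against 12.0 and 14.1 RPKM (ratio 1.23) and did not pass the test (adjusted p = 0.150). The lncRNA passed the test and the gene did not, and the difference between the pair was not tested.

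The lncRNA nearest *Wfs1*, the Wolfram syndrome gene of the endoplasmic reticulum, rose from 0.540 and 0.482 RPKM to 1.02 and 0.935 RPKM (ratio 1.91; adjusted p = 0.0138). *Wfs1*, at a distance of 16.2 kb, fell (ratio 0.744; adjusted p = 0.0347). Here the lncRNA and the gene moved in opposite directions, both past the test. The lncRNA nearest *Syt13*, a synaptotagmin gene of endocrine cells, had the smallest ratio of any that rose, 1.28, with 0.291 and 0.298 RPKM against 0.376 and 0.379 RPKM (adjusted p = 0.0433). *Syt13* rose as well, with a ratio of 1.61 (adjusted p = 0.0191).

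The 17 other lncRNAs of this list were not called, with ratios from 0.679 (nearest *Gata6*) to 1.92 (nearest 4931430N09Rik, in an intron of the calcium channel gene *Cacna1c*). The long lncRNA nearest *Foxa2*, an endoderm factor gene, had 0.199 and 0.180 RPKM against 0.196 and 0.177 RPKM, with 932 to 1234 reads in a library. Its ratio was 0.984 with a counting interval of 0.928 to 1.05, so a change of 1.5 times would lie outside the counting error of this transcript. The lncRNA nearest *Vegfa* (ratio 1.08) and that nearest *Jun* (ratio 1.05) were likewise close to level.

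The 11 intronic lncRNAs held 2 that rose and none that fell by limma, and the 97 intergenic ones held 36 and 9 (37.1% and 9.28%). Against 7.6% and 16.9% of all transcripts, 11 are too few to read a difference from. The lncRNA in the first intron of *Ntm*, a neuronal adhesion molecule gene, rose from 0.527 and 0.514 RPKM to 1.23 and 1.15 RPKM (ratio 2.28; adjusted p = 0.00914). *Ntm* itself was too low to be tested. The lncRNA in an intron of C530044C16Rik rose with a ratio of 1.56, and so did that non-coding gene (ratio 1.49; adjusted p = 0.0428). The other 9 intronic ones had ratios from 0.888 (*Hist1h2be*) to 1.92, and that of *Cacna1c* with the highest level, 0.862 to 0.907 RPKM, had a ratio of 0.981.

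The coding starts of GENCODE M1 lay at a median distance of 23.4 kb from the 108 lncRNAs. Among the 35 lncRNAs within 10 kb of a coding start, 9 rose and 6 fell (25.7% and 17.1%, against 7.6% and 16.9% of all transcripts), with a median ratio of 0.936. Among the 73 farther away, 29 rose and 3 fell (39.7% and 4.11%), with a median ratio of 1.28, and 19 of the 20 lncRNAs with a ratio of 2 or more were here. The distance at which to divide them was chosen after the values were seen, and the 2 sets were not compared by a test. The lncRNAs near a coding start were thus closer in their median to all transcripts (0.913) than the distant ones were.

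**Figure D4:**
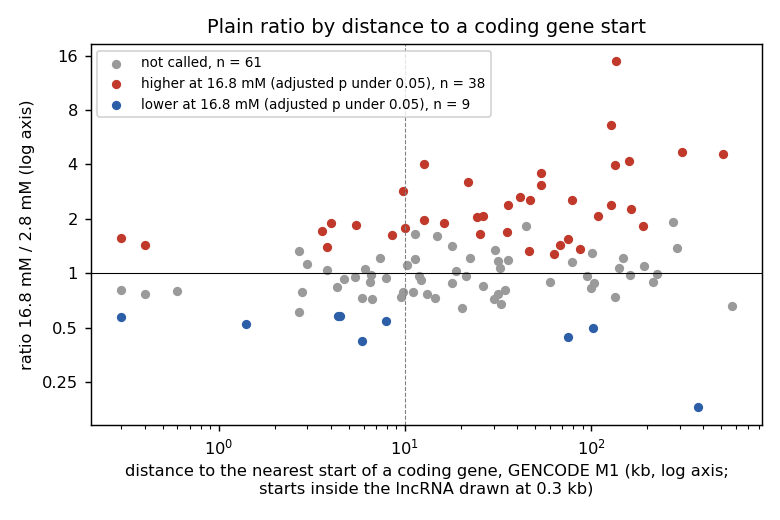
Ratio of mean RPKM at 16.8 mM to 2.8 mM (log axis) of the 108 lncRNAs against the distance in kb to the nearest coding gene start in GENCODE M1 (log axis; starts inside the lncRNA are drawn at 0.3 kb), coloured by call, with a dashed line at 10 kb. Of the 20 lncRNAs with a ratio of 2 or more, 19 lie to the right of the line.

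Each lncRNA was also set beside the gene nearest to it in the study's list. Of the 108, 61 lay on the same side of 1 as that gene in their ratio, 44 on the opposite side, and for 3 a ratio could not be formed. Of the 38 lncRNAs that rose, 11 had a nearest gene that rose and 6 one that fell. Of the 9 that fell, 3 had a nearest gene that fell and none had one that rose. Of the 87 distinct nearest genes that could be tested, 14.9% rose and 19.5% fell, against 7.6% and 16.9% of all transcripts. Across the 89 lncRNAs whose nearest gene was tested, Pearson's r of the log2 ratios was 0.411 and Spearman's coefficient 0.261, a description over loci measured in the same libraries.

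In *Ccdc162* (ratio of the lncRNA 2.06, of the gene 1.91), *Rhobtb1* (1.71 and 1.64) and C530044C16Rik, the lncRNA lay inside its nearest gene. That in *Rhobtb1* also overlapped a GENCODE M1 exon of this gene. Whether such pairs share reads was not tested. The lncRNA nearest *Lbh*, 9.8 kb from the start of this transcription regulator gene, lay outside it and rose from 0.252 and 0.164 RPKM to 0.596 and 0.594 RPKM (ratio 2.86), with *Lbh* higher as well (ratio 2.06; adjusted p = 0.0111). The lncRNA nearest *Dusp10* lay 156.3 kb from the start of that gene, which rose from 0.294 and 0.290 RPKM to 0.819 and 0.757 RPKM (ratio 2.70; adjusted p = 0.00849). The rise of the lncRNA was the larger of the pair.

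Opposite directions past the test were seen at *Wfs1*, *Zfp362*, *Degs2*, *Smim13*, *Ccnj* and A530058N18Rik, in each of which the lncRNA rose and the gene fell. The lncRNA 0.4 kb from the start of *Zfp362*, a zinc finger gene, had 0.480 and 0.521 RPKM against 0.739 and 0.695 RPKM (ratio 1.43; adjusted p = 0.0263), and *Zfp362* had a ratio of 0.553 (adjusted p = 0.0139). The lncRNA 3.8 kb from the start of *Degs2*, a sphingolipid enzyme gene, had a ratio of 1.40 (adjusted p = 0.0474), where the gene itself went from 1.24 and 1.21 RPKM to 0.677 and 0.596 RPKM (ratio 0.520; adjusted p = 0.0127). These lncRNAs close to a gene start therefore did not follow the gene.

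**Figure D5:**
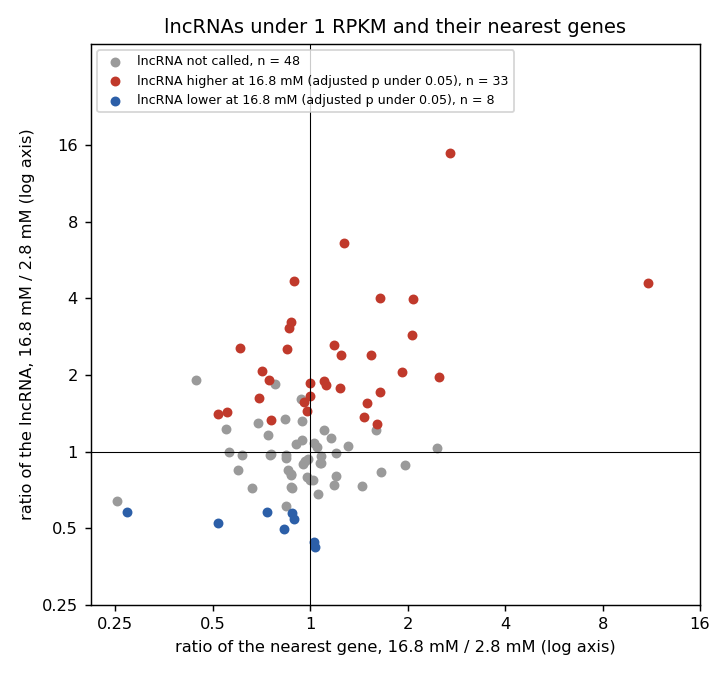
Ratio of mean RPKM at 16.8 mM to 2.8 mM of each lncRNA (log axis) against that of its nearest gene (log axis), for the 89 lncRNAs whose nearest gene was tested, coloured by the call of the lncRNA. Points lie on both sides of 1 on either axis, and the lncRNA nearest 4922502N22Rik is absent because that gene was listed at 0.

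Several of the lncRNAs had another one close by. The pair nearest *Elovl5*, a fatty acid elongase gene, lay 4215 bp apart on chromosome 9. The longer had 0.343 and 0.384 RPKM against 0.620 and 0.730 RPKM (ratio 1.86; adjusted p = 0.0192) and the shorter 0.255 and 0.280 RPKM against 0.392 and 0.488 RPKM (ratio 1.65; adjusted p = 0.0363). Both rose, whereas *Elovl5* was level with a ratio of 0.998 (adjusted p = 0.975). The pair nearest *Avpr1b*, a vasopressin receptor gene, lay 1760 bp apart and was not called (ratios 1.11 and 1.32).

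The pair nearest E330013P04Rik lay only 61 bp apart, and these bases, chr19:60256220-60256280, had a GC content of 18%. They are shown because they are all that separates both entries.
Gap between the pair nearest E330013P04Rik: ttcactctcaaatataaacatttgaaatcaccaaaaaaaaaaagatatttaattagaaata
The entries had ratios of 1.17 and 1.19, both not called, and the table does not show whether they are separate transcripts. On the X chromosome the lncRNA nearest Gm5126 rose (0.30 and 0.238 RPKM against 0.715 and 0.571 RPKM; ratio 2.39), 631 bp from an lncRNA above 1 RPKM that rose as well (ratio 1.32). Neighbouring entries thus had ratios on the same side of 1 in each of these pairs. The 108 entries may not all be independent, which was not tested.

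More lncRNAs were called among those with a higher mean level. Ordered by mean level, the lowest 36 of the 108 (0.0377 to 0.296 RPKM) held 7 called, the middle 36 held 18 and the highest 36 held 22. In the lowest set 19.4% were called, under the 24.5% of all transcripts, whereas the middle and highest sets lay above that share. The rises outnumbered the falls in each set of 36, with 6 and 1, 16 and 2, and 16 and 6. The rises made up 16.7%, 44.4% and 44.4% of the sets, against 7.6% of all transcripts. The falls made up 2.78%, 5.56% and 16.7%, against 16.9%. Their median ratios were 1.08, 1.25 and 1.15. Without the 18 lncRNAs that overlap a GENCODE M1 exon, 33 of 90 rose and 7 fell (36.7% and 7.78%, against 7.6% and 16.9%). This restriction was added after the data were seen.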

How the data were processed

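A single table of RPKM values for 4 libraries (33923 entries) was deposited by the authors. Per the labels, the processing used STAR, bedtools, DESeq and mm9. How the lncRNAs were counted is not given in the sources used here. Spans, class and nearest gene of the lncRNAs came from the identity columns of the study's lncRNA list (all matched). Where a gene had entries with identical values, 1 was kept (28047 remained). Depth was recovered from the lncRNA values, of which 98.6% to 100.0% were whole reads within 0.1 read, and reads were rebuilt from it. Intervals cover counting error only, and 2 libraries per group limit the precision more than depth.

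Values were tested as log2(RPKM + 0.1) in R 4.3.3 by limma 3.58.1 with the trend option, a minimum mean of 0.03 RPKM and Benjamini-Hochberg adjustment at 0.05 over all 19148 transcripts. This scale understates the change of low transcripts, so plain ratios are given too. On simulated data with 198 of 16884 transcripts changed, 60.7% of log2 changes of 1 and 99.1% of log2 changes of 2 were recovered. Of the calls, 12.9% were unchanged transcripts, and 3 calls were made with none changed. The simulation gave all transcripts the same spread beyond counting error and far fewer changes than were called here. These rates may therefore not hold for these libraries. Reads of the other transcripts, here and in voom, rested on GENCODE M1 gene spans, which were not checked against whole reads. Sequences and positions came from NCBI build 37 and GENCODE M1, read in Python 3.11.15. Also used were scipy 1.17.1, numpy 2.4.6, pandas 2.3.3 and, for figures, matplotlib 3.10.9.

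Named lncRNAs were the 8 highest and 8 lowest ratios among those called with at least 20 reads in each library of the higher group, those near a list of islet, hormone, signalling and transcription genes, those within 15 kb of another lncRNA, intronic ones, the 3 at each edge of the level range and the 3 just above it, with their nearest genes. Others in the text (nearest Lbh, Gm19345, Ccdc162, Rhobtb1, Zfp362, Degs2, Smim13, Ccnj and A530058N18Rik, and the olfactory receptors) were chosen after their values were seen. The members and lists were chosen with earlier results of these data known. Alternatives were other values added before the log, other minimums, median centring, quantile normalization, no trend, the replicate block, voom on rebuilt reads, all entries as deposited, stricter thresholds and leaving out each library.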

Additional observations from a re-analysis of the deposited data

How the results depend on the processing

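All 47 called lncRNAs kept their direction in every alternative fit. Their groups did not overlap, so several of these fits could not have turned a direction. Those were the fits with a library left out or with another added value, minimum, trend or block. The counts that rose and fell, 38 and 9, were 29 and 7 with no minimum and 35 and 9 without the variance trend. They were 42 and 8 with each library median centred, 41 and 8 with quantile normalization, and 35 and 9 with voom on rebuilt reads. Of all transcripts, 4700 of 19148 were called in the main fit, 3544 of 26272 with no minimum and 4616 of 19148 without the trend. Median centring called 6600 of 19148, quantile normalization 6851 of 19148 and voom 7204 of 16393. Median centring moved the median log2 difference of all transcripts from -0.10 to 0.03 and the median ratio of the 108 lncRNAs from 1.14 to 1.26. At an adjusted p under 0.01 there were 6 calls, 5 higher and 1 lower, and the share of all transcripts at that cut is not given here. With 1 library left out, 0 to 2 lncRNAs were called, 0 to 1 in each direction. A fit on 3 libraries has little left to estimate the spread from, so no conclusion is drawn from these counts. The median ratio was then 1.04 to 1.20, and 2 to 5 ratios were 0.5 or less. These plain ratios do not use the spread of the fit.

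Libraries 1 and 2 of the groups share only a number. Deviations of same-numbered libraries correlated at 0.126 over all transcripts and 0.0382 over the 108 lncRNAs. With the replicate block 38 rose and 14 fell, and with voom and the block 40 and 12. Of all transcripts, these fits called 6579 of 19148 and 9658 of 16393.

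Of the 72 lncRNAs under 0.5 RPKM, 13 had a ratio of 2 or more and 1 of 0.5 or less. Of all 108, 15 and 2 did with 0.1 RPKM added to both means. At 1.5-fold the counts were 36 and 12, and at 4-fold 6 and 1. The shares of all transcripts at these cuts are not given here. Read depth limits the lowest lncRNAs most, such as that nearest Slc35f6.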
